A study of Mus musculus with 6 samples.

Results

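The genes described here mark the main kinds of mouse monocyte. The 9 chosen genes were the classical markers Ly6c2, F13a1, Vcan and Fn1, the nonclassical markers Treml4, Nr4a1 and Spn, and the monocyte genes Cd14 and Ms4a6c. They were chosen by name, with earlier results of these data known, and 8 of them were measured among 19938 genes tested. Ly6c2 was not measured on its own, because both of its rows also carry another Ly6 symbol, which left 3 classical and 3 nonclassical genes.

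RNA came from CD11b+Gr-1+ cells of the liver, sorted from C57BL/6 mice bearing tumours of EL4, a mouse T cell lymphoma line. The labels name them myeloid-derived suppressor cells, a population of immature granulocytes and monocytes that can hold back T cell responses. Of the 6 arrays, 3 came from mice injected with PBS, which the titles call untreated, and 3 from mice injected with type IV concanavalin A (Con A), a lectin from jack beans that stimulates T cells and brings on hepatitis within hours. Cells were taken 3 hours after injection in both groups. All the mice bore tumours, and age is not given in the labels. The labels give the dose of Con A as 12.5 mg/kg in one field and 12.5 ug/kg in another, and do not say that each array held 1 mouse. The p-values therefore rest on the spread among these arrays, part of which may be technical.

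Classical monocytes carry much Ly6C, leave the bone marrow through the chemokine receptor CCR2 and enter inflamed tissue, where they become macrophages or dendritic cells. Nonclassical monocytes carry little Ly6C, patrol the walls of blood vessels and depend on the nuclear receptor NR4A1. The Gr-1 antibody binds Ly6G, on neutrophils, and Ly6C, on classical monocytes, so the sort was a mixture, and nonclassical monocytes with little Ly6C lie at its edge. In a mixture, fewer cells of a type and less RNA per cell cannot be told apart. The values are log2 expression values as deposited, so a difference of 1 is a 2-fold change.

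After Con A, 2 of the 8 genes fell and 1 rose. F13a1 fell 4.46-fold and Fn1 fell 1.65-fold, both classical markers, and Cd14, the co-receptor for bacterial lipopolysaccharide, rose 1.77-fold. None of the 3 nonclassical markers passed the test (2 did at an unadjusted p under 0.05), and all 3 had lower means after Con A. Over all genes tested, 7.22% fell and 4.59% rose by the same test (limma, Benjamini-Hochberg adjusted p under 0.05). When only genes at or above the median level were tested, as all 8 were, these shares were 14.8% and 8.89%. In that fit Vcan also passed (limma adjusted p = 0.0433). The median difference, Con A minus PBS, was -0.71 over the 8 genes and 0.024 over all genes tested. The arrays of the groups did not overlap for 5 genes that were lower after Con A and for Cd14, which was higher, where 15.6% and 14.4% of all genes were lower and higher without overlap. All 48 values of the 8 genes lay above the array medians of 7.05 to 7.08, the lowest at 8.80.

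**Figure D1:**
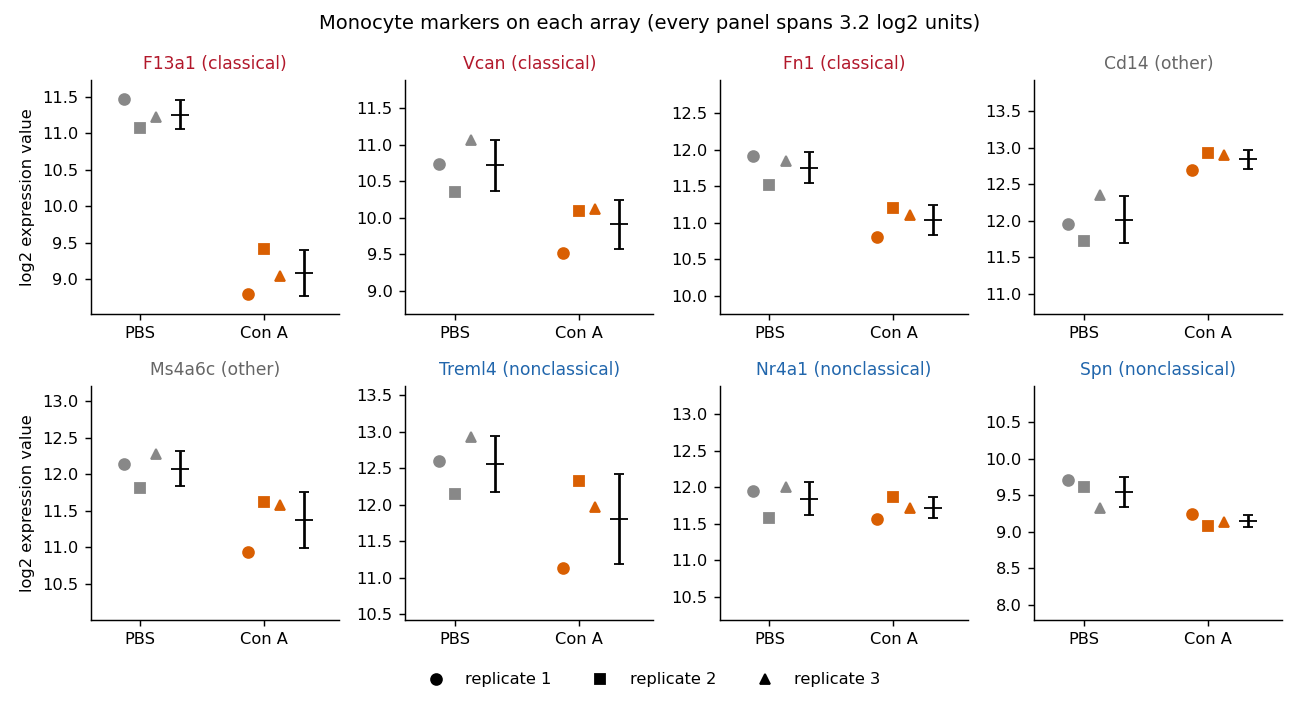
Log2 expression value of each of the 8 monocyte markers on each array, PBS in grey and Con A in orange, with a marker shape for each replicate number and the mean ± SD beside each group (n = 3). F13a1 stands apart most, between 11.07 and 11.46 after PBS and between 8.80 and 9.42 after Con A, while the Treml4 and Nr4a1 arrays overlap between the groups.

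F13a1 encodes the A subunit of coagulation factor XIII, a transglutaminase that cross-links fibrin and that monocytes, macrophages and megakaryocytes make. Its level was 11.46, 11.07 and 11.22 in PBS replicates 1, 2 and 3, and 8.80, 9.42 and 9.05 in Con A replicates 1, 2 and 3. Every Con A array lay at least 1.65 below every PBS array. The difference was -2.16 ± 0.17 (SE, 95% interval -2.55 to -1.76, adjusted p = 0.000808 by limma), and only 3 of the 19938 genes had a more negative one. With any 1 array left out it stayed between -2.32 and -2.01 and passed the test each time. Platelets also carry factor XIII-A. The 6 measured platelet markers rose in 1 case (Itga2b) and fell in 0, and all 6 differences were positive, with a median of 0.87. Their mean level was 7.13 to 7.52 after PBS and 7.29 to 9.01 after Con A, highest in Con A replicate 2. F13a1 had its highest Con A value in that array, and without it the difference was -2.32. The part of platelets in the F13a1 difference was not tested.

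The promoters of F13a1, the gene with the largest change, and of Ms4a6c, the gene with the only motif match, are shown to give the sequence before their start sites. RefSeq windows were found for 6 of the 8 genes (F13a1 with 2 start sites, Vcan, Ms4a6c, Treml4, Nr4a1 and Spn with 1 each). The 250 bases before each start were searched on both strands for the core of the interferon-stimulated response element (GAAANNGAA), PU.1 (GAGGAAGT), C/EBP (TTGCNNAA), NBRE (AAAGGTCA, bound by NR4A receptors), AP-1 (TGANTCA), CRE (TGACGTCA), NF-kB (GGGNNTTCC) and KLF (GGGTGTGG). The only match in these windows was a core response element in Ms4a6c, 133 bases before the start, on the coding strand, overlapping no other motif and shown in capitals. That motif is in 7.13% of the 32851 windows of all genes, and the other 7 motifs are in 1.34% to 9.56%. The sequences run 5′ to 3′ on the gene's strand in build GRCm38.p6. The F13a1 windows are chr13:37050245-37050494 and chr13:37049214-37049463, both on the minus strand, and the Ms4a6c window is chr19:11469118-11469367 on the plus strand.
F13a1, outer start: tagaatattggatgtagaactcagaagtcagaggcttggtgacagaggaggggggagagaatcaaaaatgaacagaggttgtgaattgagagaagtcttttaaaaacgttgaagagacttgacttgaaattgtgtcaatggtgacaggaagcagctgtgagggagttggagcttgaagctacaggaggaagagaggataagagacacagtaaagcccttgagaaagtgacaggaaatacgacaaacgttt
F13a1, inner start: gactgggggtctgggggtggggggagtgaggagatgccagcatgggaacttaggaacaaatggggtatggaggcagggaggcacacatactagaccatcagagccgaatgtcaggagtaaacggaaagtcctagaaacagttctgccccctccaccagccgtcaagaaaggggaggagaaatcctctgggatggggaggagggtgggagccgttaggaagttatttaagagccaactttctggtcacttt
Ms4a6c: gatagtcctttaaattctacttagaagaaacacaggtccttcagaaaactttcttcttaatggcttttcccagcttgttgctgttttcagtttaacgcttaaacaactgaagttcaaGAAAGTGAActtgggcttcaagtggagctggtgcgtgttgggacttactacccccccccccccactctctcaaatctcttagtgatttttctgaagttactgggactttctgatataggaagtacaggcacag
A match is a description of letters and not a site, and the lack of one says only that those letters are not in the window.

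Fn1 encodes fibronectin, a matrix glycoprotein that monocytes and macrophages secrete and that hepatocytes release into plasma. It stood at 11.91, 11.51 and 11.84 in PBS replicates 1, 2 and 3, and at 10.80, 11.20 and 11.10 in the Con A replicates. The groups did not overlap, and the nearest arrays, PBS replicate 2 and Con A replicate 2, were 0.31 apart. The fall was 0.72 ± 0.14 (SE, 95% interval -1.06 to -0.39, adjusted p = 0.0169 by limma). Without PBS replicate 1 the difference was -0.64 and missed the threshold (adjusted p = 0.076). Hepatocyte markers had 0 of 12 members past the test, and 11 of the 12 differences were positive. Their mean level was 6.32 on all PBS arrays and 6.34 to 7.07 after Con A, highest in Con A replicate 2. With that array left out, the Fn1 difference was -0.81. The part of hepatocytes in it was not tested.

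Vcan encodes versican, a large matrix proteoglycan that is abundant in classical monocytes. Its level was 10.74, 10.36 and 11.06 in PBS replicates 1, 2 and 3, and 9.52, 10.09 and 10.12 in the Con A replicates. The groups did not overlap, with a gap of 0.24, which is smaller than the range of 0.70 within PBS and of 0.60 within Con A. The difference of -0.81 ± 0.22 (SE, 95% interval -1.31 to -0.30) narrowly missed the threshold (adjusted p = 0.0537 by limma), and passed it without PBS replicate 2, at -0.99 (adjusted p = 0.0305). With any other array left out it missed, at -0.91 to -0.61 (adjusted p from 0.0838 to 0.16). Its size was close to that of Fn1, whose arrays varied less.

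Among the nonclassical markers, Treml4, an immunoglobulin-type receptor of nonclassical monocytes and some macrophages and dendritic cells, varied most. Its level was 12.60, 12.15 and 12.92 in PBS replicates 1, 2 and 3, and 11.13, 12.32 and 11.97 in the Con A replicates. Con A replicate 2 lay above PBS replicate 2, so the groups overlapped, and the range within Con A, 1.19, exceeded the difference between the means, -0.76 ± 0.31 (SE, 95% interval -1.49 to -0.03, adjusted p = 0.188 by limma). The difference was -0.42 when Con A replicate 1 was left out and -1.01 when Con A replicate 2 was, and it missed the threshold in all 17 alternative analyses.

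Spn encodes CD43, a sialoglycoprotein of leukocytes that is more abundant on nonclassical monocytes and is also made by T cells and granulocytes. It stood at 9.71, 9.61 and 9.32 in PBS replicates 1, 2 and 3, and at 9.24, 9.08 and 9.13 in the Con A replicates. The groups were separated by 0.08, the narrowest gap among the genes whose groups did not overlap. The difference was -0.39 ± 0.11 (SE, 95% interval -0.66 to -0.13, adjusted p = 0.0672 by limma), and it missed the threshold. Without PBS replicate 3, the lowest PBS array for this gene, it was -0.51 and passed the test (adjusted p = 0.00998). With any other array left out it missed, at -0.44 to -0.31 (adjusted p from 0.104 to 0.206).

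Nr4a1 encodes the nuclear receptor that nonclassical monocytes need, and it is also an immediate early gene in many activated cells. Its level was 11.95, 11.58 and 12.0 in PBS replicates 1, 2 and 3, and 11.57, 11.86 and 11.72 in the Con A replicates. The Con A arrays lay almost wholly within the PBS range. The difference was -0.13 ± 0.13 (SE, adjusted p = 0.619 by limma), and its 95% interval of -0.43 to 0.18 reaches a 1.35-fold fall. The related genes Nr4a2 and Nr4a3 differed by 0.13 and 0.85 and did not pass the test (adjusted p = 0.819 and 0.36), with Nr4a3 ranging from 6.51 to 8.08 after PBS and from 7.23 to 8.78 after Con A. With the replicate number as a block, Nr4a3 passed at the same difference (limma adjusted p = 0.00484).

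**Figure D2:**
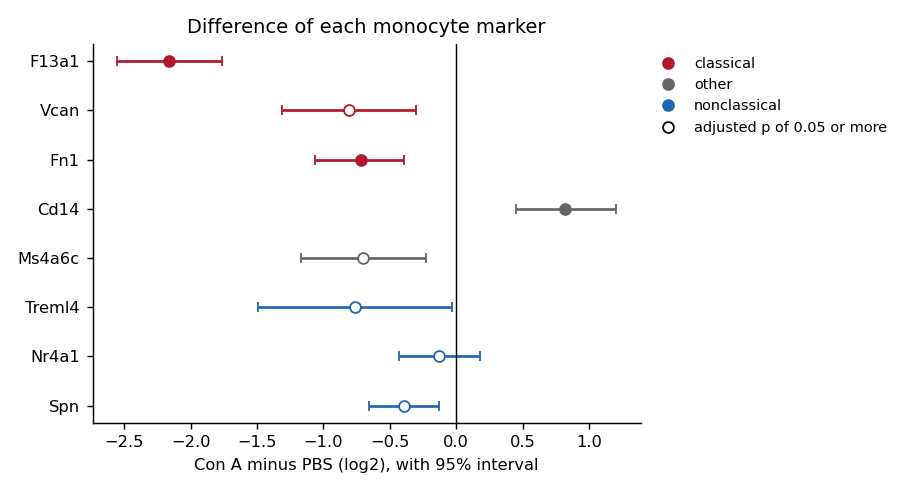
Difference between the group means (Con A minus PBS, log2) of each marker with its 95% interval from limma over 3 arrays per group, classical in red, nonclassical in blue and the others in grey. Filled points passed the adjusted threshold, which are F13a1 at -2.16, Fn1 at -0.72 and Cd14 at 0.82, and the interval of Nr4a1 spans 0.

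Cd14 was the only one of the 8 with a higher mean after Con A. It encodes the anchored receptor that hands lipopolysaccharide to TLR4 and MD-2, and its transcript is made by monocytes, macrophages and activated neutrophils. Its level was 11.96, 11.73 and 12.36 in PBS replicates 1, 2 and 3, and 12.69, 12.93 and 12.90 in the Con A replicates. Every Con A array exceeded every PBS array, by at least 0.32, and the Con A arrays spread less, over 0.24 against 0.64. The rise was 0.82 ± 0.16 (SE, 95% interval 0.45 to 1.20, adjusted p = 0.017 by limma). The call was lost without PBS replicate 1, Con A replicate 2 or Con A replicate 3 (adjusted p = 0.0778, 0.0787 and 0.065), with differences of 0.79, 0.78 and 0.79.

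A list held genes of the CD14 and lipopolysaccharide receptor complex, its signalling partners and its relatives. Of its 12 measured genes, Cd14 included, 4 rose and 3 fell, with a median difference of -0.09. Besides Cd14, the receptor Tlr4 rose by 0.79, from 9.44 ± 0.13 to 10.23 ± 0.14 (SD, n = 3), the ubiquitin ligase Traf6 by 0.89 and the adaptor Myd88 by 0.49. Ly96, which encodes MD-2, the subunit of TLR4 that holds lipopolysaccharide, fell by 1.02, from 11.94 ± 0.09 to 10.92 ± 0.42. Cd180, which encodes the TLR4 homologue RP105, fell by 2.28, and the adaptor Ticam2 of the TRIF arm fell by 0.70. Ly86, which encodes MD-1, the partner of RP105, was lower by 0.97 with an adjusted p of 0.0641. The other genes on the list, Irak1, Tirap, Ticam1 and Lbp, did not pass the test, with Irak1 lower by 0.32 at an adjusted p of 0.0522. The calls of Ly96, Myd88 and Ticam2 were lost without PBS replicate 1 (adjusted p = 0.0746, 0.0582 and 0.0768). The call of Myd88 was also lost without Con A replicate 2 (adjusted p = 0.0513), and that of Ticam2 without Con A replicates 1, 2 or 3 (adjusted p = 0.0743, 0.077 and 0.0565).

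Ms4a6c encodes a membrane-spanning 4A protein of monocytes and macrophages. Its level was 12.14, 11.81 and 12.28 in PBS replicates 1, 2 and 3, and 10.94, 11.62 and 11.58 in the Con A replicates. The groups did not overlap, with a gap of 0.20 between PBS replicate 2 and Con A replicate 2, and Con A replicate 1 lay well below the other Con A arrays. The difference was -0.70 ± 0.20 (SE, 95% interval -1.17 to -0.23) and missed the threshold (adjusted p = 0.0693 by limma) in the full set and with any 1 array left out.

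In the MS4A family 15 genes were measured, of which 3 fell and 0 rose, with a median difference of -0.26. Ms4a6b fell by 1.21, from 10.37 ± 0.33 to 9.17 ± 0.60 (SD, n = 3), Ms4a4b by 0.61 and the B cell gene Ms4a1, which encodes CD20, by 0.45. Ms4a4b and Ms4a1 had PBS means of 6.79 and 6.65, below the array medians. Ms4a4c was lower by 0.93 (adjusted p = 0.063) and Ms4a6d by 0.28 (adjusted p = 0.597). Ms4a6b lost its call without PBS replicates 1, 2 or 3 or Con A replicate 2 (adjusted p = 0.119, 0.0547, 0.0691 and 0.0997). Ms4a4b kept its call only without Con A replicate 3, with adjusted p from 0.0826 (without PBS replicate 3) to 0.165 (without Con A replicate 2) otherwise, and Ms4a1 lost its call without PBS replicates 1 or 2 or Con A replicates 1 or 2 (adjusted p = 0.106, 0.0832, 0.0835 and 0.104). These genes are close relatives, and how far their probes read each other was not tested. In the TREM family, to which Treml4 belongs, 1 of 7 genes fell and 0 rose. That gene was Trem2, a lipid receptor of macrophages, which fell by 0.40, from 8.15 ± 0.03 to 7.76 ± 0.03, while Trem1, the activating receptor of neutrophils and monocytes, differed by 0.18 (adjusted p = 0.432).

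Set side by side as deviations from each gene's own PBS mean, the classical markers averaged -1.53, -1.0 and -1.15 in Con A replicates 1, 2 and 3, and the nonclassical markers -0.67, -0.23 and -0.38. Both sets were therefore below their PBS means on every Con A array. The classical mean minus the nonclassical mean was -0.87, -0.77 and -0.77 there, against 0.02, -0.06 and 0.03 in PBS replicates 1, 2 and 3. F13a1 carried much of it. Without F13a1 the same quantity was -0.41, -0.36 and -0.25 in the Con A replicates and -0.02, -0.10 and 0.11 in the PBS replicates. The median difference was -0.81 over the 3 classical and -0.39 over the 3 nonclassical genes. These are descriptions of few genes, and the difference between the sets was not tested.

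**Figure D3:**
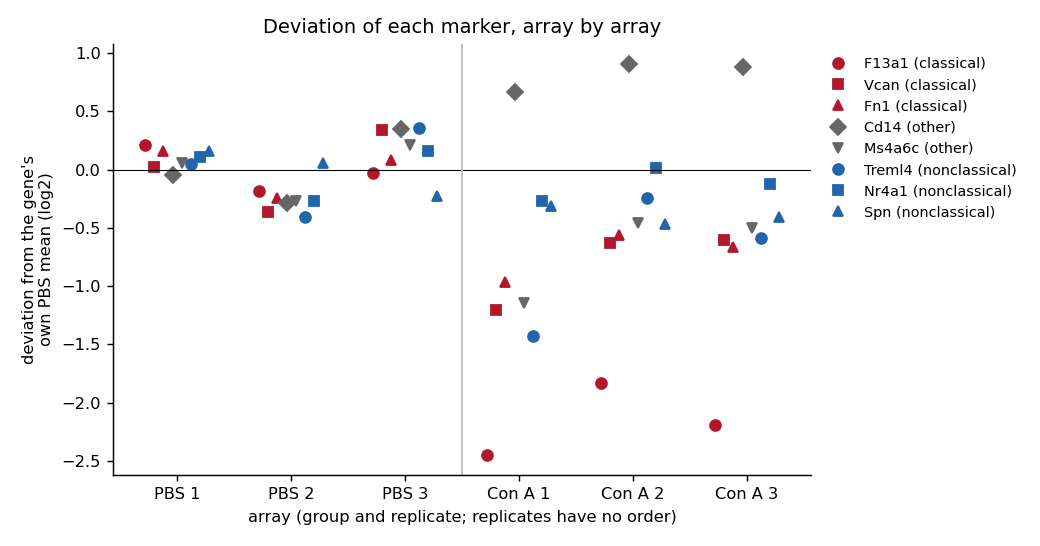
Deviation of each marker from its own PBS mean (log2) on each of the 6 arrays, classical in red, nonclassical in blue and the others in grey. F13a1 lies between -2.45 and -1.83 on the Con A arrays, Cd14 between 0.67 and 0.91, and in Con A replicate 1 Treml4, Vcan, Ms4a6c and Fn1 lie between -1.43 and -0.96.

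The markers also moved together within the groups. PBS replicate 2 was the lowest PBS array for 7 of the 8 genes, all but Spn, and Con A replicate 1 was the lowest Con A array for 7, again all but Spn. Over all genes tested, these arrays were the lowest of their group in 33.3% and 32.2% of cases. Of 39 other monocyte genes on wider lists, PBS replicate 2 was lowest for 30 and Con A replicate 1 for 28. Without those arrays together, 4 of the 8 genes fell (F13a1, Vcan, Fn1 and Ms4a6c) and 0 rose, with Cd14 at 0.75 (adjusted p = 0.0502), while over all genes 2.78% fell and 2.69% rose. That setting was chosen after the data were seen.

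In wider marker lists the medians stood in the other order, a difference that was not tested. Of 14 other classical markers, 3 fell and 3 rose, with a median difference of 0.03, while of 14 other nonclassical markers 8 fell and 3 rose, with a median of -0.69. Both lists held genes that fell and genes that rose. Some genes of the classical list stood near the level of the neutrophil markers, such as Lyz2, Chil3 and Hp, with PBS means of 13.61, 13.13 and 12.92. The part of neutrophils in that list's median was not tested. On the classical list Ccr2, the receptor that classical monocytes follow out of the marrow, fell by 2.00, from 10.77 ± 0.27 to 8.77 ± 0.40 (SD, n = 3). Tgfbi, a matrix protein, fell by 1.09 and the C1q receptor family gene Cd93 by 0.97, while Thbs1, which encodes thrombospondin 1, rose by 1.76, from 11.33 ± 0.47 to 13.08 ± 0.04. On the nonclassical list Cx3cr1, the fractalkine receptor, fell by 1.81, from 9.32 ± 0.26 to 7.51 ± 0.29. The G protein subunit gene Gngt2 fell by 1.28 and Ace, angiotensin-converting enzyme, by 1.12, while the lipid-sensing receptor Pparg rose by 1.80, from 9.41 ± 0.60 to 11.21 ± 0.07. The calls of Gngt2 and Ace were lost without PBS replicate 1 (adjusted p = 0.0877 and 0.113), and that of Ace also without Con A replicate 3 (adjusted p = 0.0584). Of 11 general monocyte and macrophage genes, 2 fell and 0 rose, with a median of -0.23. They were Aif1, an actin-binding protein, which fell by 1.35, and the lysosomal gene Cd68, which fell by 0.73 and lost its call without PBS replicate 1 (adjusted p = 0.082).

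**Figure D4:**
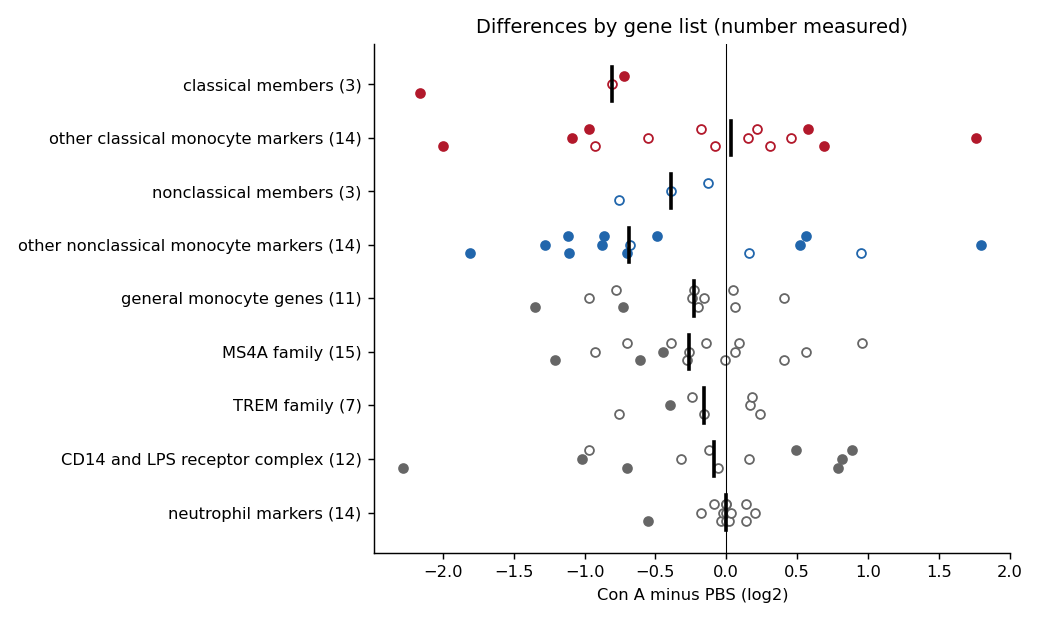
Difference of each gene (Con A minus PBS, log2) in 9 gene lists, with the number measured in parentheses, filled where the adjusted threshold was passed and with a black bar at the list's median. Other classical markers spread on both sides of 0 around a median of 0.03, other nonclassical markers have a median of -0.69, and neutrophil markers lie close to 0.

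Markers of other cells in the sort were measured beside these. Of 14 neutrophil markers, 1 fell (Padi4, by 0.55) and 0 rose, with a median difference of 0.0. Padi4 lost its call without any array other than PBS replicate 3 (adjusted p between 0.066 for Con A replicate 1 and 0.117 for PBS replicate 1). The mean level of these markers was 12.97 to 13.15 after PBS and 13.04 to 13.11 after Con A, and the defining gene Ly6g stood between 13.46 and 13.69 on all arrays. Such levels are near the top of the scale, where the array processing compresses differences. A median near 0 therefore does not show that neutrophil content was unchanged, which was not tested. Kupffer cell markers, of which 0 of 11 rose and 1 fell, had mean levels of 7.95 to 8.30 after PBS and 7.84 to 9.32 after Con A, with Con A replicate 2 highest. Of the 11 differences, 9 were positive. The defining markers Clec4f, Vsig4 and Timd4 had PBS means of 7.30, 7.24 and 7.25. They were higher by 0.69, 1.23 and 0.66 after Con A without passing the test (limma adjusted p = 0.421, 0.37 and 0.249). Con A replicate 2 was highest for each. In Con A replicates 1, 2 and 3, Clec4f stood at 7.19, 9.18 and 7.62, Vsig4 at 6.95, 10.12 and 8.35, and Timd4 at 7.30, 8.69 and 7.75. The dendritic cell markers had 1 of 9 fall and 0 rise, at 7.67 to 8.14 and 7.60 to 8.26, and the T cell and EL4 markers 0 of 9 either way, at 6.45 to 6.53 and 6.47 to 6.62. Eosinophil markers rose in 3 of 5 cases, at 8.55 to 9.20 and 9.21 to 9.75, and all 5 differences were positive. The 3 were Epx, Prg2 and Siglecf (limma adjusted p = 0.0459, 0.0418 and 0.0379), with gaps between the groups of only 0.05, 0.09 and 0.15. NK cell markers (1 of 8 rose, 7.32 to 7.59 and 7.05 to 8.10), B cell markers (1 of 7 fell, 6.53 to 6.88 and 6.55 to 6.67) and endothelial and stellate markers (1 of 10 rose and 1 fell, 7.03 to 7.19 and 7.07 to 7.41) overlapped between the groups. The part of these cells in the monocyte marker differences was not tested.

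For each gene past the threshold, the 3 genes of most similar pattern were taken as those with the smallest root mean square difference over the 6 arrays, after subtracting each gene's PBS mean, among 18257 named genes. F13a1 was closest to Pid1, Cd180 and Sh2d1b1, at 0.25, 0.26 and 0.26, whose differences were -2.36, -2.28 and -2.17. Fn1 was closest to the Wnt pathway transcription factor Tcf7l2, the phospholipase Plcb1 and Plekhm3, at 0.07, 0.08 and 0.09, with differences of -0.71, -0.74 and -0.62. Cd14 was closest to Tnip1, an inhibitor of NF-kB signals, and the transcription factors Ets2 and Irf7, at 0.04, 0.05 and 0.05, with rises of 0.81, 0.85 and 0.77. All 9 passed the test, but they were chosen for likeness to genes that had passed on these same arrays, so this adds no evidence.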

How the data were processed

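Gene expression was measured on 6 mouse Affymetrix gene arrays, 3 per group. The authors deposited log2 expression values, for which the submitters' processing notes name RMA and Partek without versions or settings. RMA brings arrays to a common distribution, and differences near both ends of the scale can be compressed. No detection calls came with the values, and precision is limited by the number of arrays.

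Of 35556 rows, the platform annotation gave 1 symbol to 21789. A gene with more than 1 row was represented by its row of highest mean over the arrays, leaving 19938 genes. The members had 1 row each. Groups were compared with limma 3.58.1 under R 4.3.3, using lmFit with eBayes and two-sided tests adjusted by Benjamini-Hochberg over all genes tested, with a threshold of 0.05 and 95% intervals of the moderated fit. The fit was tested on simulated data. Python 3.11.15 with matplotlib 3.10.9 and pandas 2.3.3 made the tables and plots.

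The members and gene lists were chosen with earlier results of these data known. Named genes were the members, the closest patterns, up to 4 genes past the threshold in each other list with the largest difference, and the families of Cd14, Ms4a6c and Treml4. Defining markers of other cells could also be named, and Nr4a2, Nr4a3, Lyz2, Chil3 and Hp were named after their values were seen. Genome coordinates belong to RefSeq's GRCm38.p6. The array's own build is not stated here. A further planned motif is not reported here.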

Additional observations from a re-analysis of the deposited data

How the results depend on the processing

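All 8 markers kept their direction in all 17 alternatives, and F13a1 passed the test in each. With unmoderated statistics Fn1 and Cd14 missed the threshold at -0.72 (adjusted p = 0.119) and 0.82 (0.125), leaving 0 markers higher (1 at an unadjusted p under 0.05, Cd14 at 0.0151) and 1 lower, and 290 and 381 of all genes higher and lower. Only genes at or above the median level gave Vcan at -0.81 (0.0433), and array weights gave Spn at -0.44 (0.0232). With 1 array left out, Vcan ranged from -0.99 to -0.61, Ms4a6c from -0.83 to -0.48, Fn1 from -0.85 to -0.61, Cd14 from 0.68 to 0.99 and Spn from -0.51 to -0.31. Markers called higher then numbered 0 to 1 and lower 1 to 3, and all genes 458 to 1114 higher and 682 to 1651 lower. Without PBS replicate 2 and Con A replicate 1 together, Vcan stood at -0.79, Ms4a6c at -0.61 and Cd14 at 0.75, with 0 markers higher, 4 lower, and 537 and 554 genes higher and lower, and the share of calls that were higher went from 38.9% to 49.2%. The replicate number as a block gave 5 markers and 1524 of all genes lower (1015 higher), with Vcan at -0.81 (0.0283), Ms4a6c at -0.70 (0.049) and Spn at -0.39 (0.0492). The deviations of same-numbered arrays (replicates 1, 2 and 3) had correlations of 0.228, -0.17 and 0.555 over genes. Those of differently numbered arrays ran from -0.543 to 0.538, so the numbers were not taken to pair the arrays. Whether the replicate 3 arrays shared an effect was not tested. The cause of these changes was not tested. A set of 32 other genes past the threshold was followed through the alternatives. It held Pecam1 and Lyve1, not named above, and left out the eosinophil genes and the genes of similar pattern other than Cd180. Of the 32, 7 passed with unmoderated statistics and 17 to 30 with 1 array left out, and all kept their direction in these fits.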

Other observations

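Among 15 measured transcription factors of monocytes, 2 rose and 2 fell, with a median difference of 0.01. Cebpa, a factor that drives myeloid progenitors towards monocytes and granulocytes, fell by 1.07, from 9.61 ± 0.14 to 8.55 ± 0.14 (SD, n = 3), and the repressor Bcl6 fell by 0.94. Irf8, which drives monocyte and dendritic cell fate, rose by 0.98, from 9.68 ± 0.14 to 10.67 ± 0.42, and Cebpb, which nonclassical monocytes need, rose by 0.56. Irf8 and Cebpb lost their calls without PBS replicates 1 or 2 or Con A replicates 2 or 3 (limma adjusted p = 0.0807, 0.0565, 0.0699 and 0.0719 for Irf8, and 0.0925, 0.0579, 0.0975 and 0.0715 for Cebpb).

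Of 15 receptors and remodelling enzymes of fibronectin and versican, 4 rose and 2 fell, with a median of 0.12. The proteoglycan Sdc4, a fibronectin co-receptor, rose by 2.13, from 8.44 ± 0.56 to 10.57 ± 0.58, Tlr2, which versican can engage, by 1.13, and the transglutaminase Tgm2 by 0.91. Itga4, a subunit of a fibronectin-binding integrin, fell by 0.95. Tgm2 and Itga4 lost their calls without PBS replicate 1 (limma adjusted p = 0.0701 and 0.0807) or Con A replicate 3 (0.0626 and 0.0613), and Tgm2 also without Con A replicate 2 (0.0736).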
